A study of Homo sapiens with 45 samples.

Results

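SOX8, SOX9 and SOX10 are the 3 genes of group E of the SOX family (SOXE), transcription factors that bind DNA through a high-mobility-group domain. They were taken by gene symbol from the 58233 genes of the tables and followed in all 45 libraries. In the embryonic spinal cord, SOX9 appears in neural progenitors and takes part in the switch from making neurons to making glia. SOX10 is known as a factor of neural crest cells, Schwann cells and oligodendrocytes. SOX8 overlaps with both relatives and acts with SOX10 in the oligodendrocyte lineage. Outside the nervous system, SOX9 directs cartilage formation and, with SOX8, the Sertoli cells of the testis.

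The study followed polyadenylated RNA over time while human motor neurons were made from H9, an established line of human embryonic stem cells. The 15 groups are days 0, 1, 2 and 4 to 15, with 3 libraries each, and all come from this 1 unmodified line. From day -3 to day -1 the cells were grown in N2B27 medium with 3 µM CHIR99021 (a Wnt pathway activator), 5 ng/ml bFGF, 10 µM SB431542 and 2 µM DMH1 (inhibitors of activin/TGF-beta and BMP receptors) and 10 µM ROCK inhibitor. Cells at this stage are labelled neuromesodermal progenitors, a bipotent tail bud population that forms spinal cord and paraxial mesoderm. On day 0, labelled as the control, the cells were dissociated and replated in 100 nM RA (retinoic acid) and 500 nM SAG (a Hedgehog pathway agonist). The replating medium also held 10 µM ROCK inhibitor, which was taken out after 48 h, and the medium was replaced on alternate days. Every later group shares RA and SAG, so a change after day 0 cannot be told apart between time, agents and replating. Replicates are named bioreps and nothing more, so p-values measure only the spread between these samples, which may be technical.

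Library totals ran from 22835854 counts (day 4 replicate 2) to 39066286 (day 15 replicate 3), with 23091 to 25174 genes detected and 1.795% to 5.287% of counts from mitochondrial genes. The labels call all libraries ES-derived neural progenitors. The progenitor markers SOX1 and PAX6 averaged 1.34 and 0.263 TPM (the deposited abundance, scaled for gene length and library total) on day 0, against 72.0 and 392 TPM on day 1, so on day 0 these markers were near 0. SOX2 and NES averaged 175 and 149 TPM on day 0.

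In the GRCh38 build with GENCODE 29, SOX8 (ENSG00000005513) lies at chr16:981808-986979 on the plus strand. SOX9 (ENSG00000125398) lies at chr17:72121020-72126420 on the plus strand, inside the longer minus-strand gene SOX9-AS1, whose exons share 0 bases with those of SOX9. SOX10 (ENSG00000100146) lies at chr22:37970686-37987422 on the minus strand, inside the plus-strand gene POLR2F, an RNA polymerase subunit. POLR2F shares 89 exon bases with SOX10 and held 50414 counts over all libraries. Whether counting used strand is not stated in the sources at hand, so low SOX10 counts cannot be told apart from POLR2F reads in those bases.

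SOX8 and SOX9 varied over the course in different ways, and SOX10 was found almost only on day 0. The quasi-likelihood F test of edgeR over all days gave Benjamini-Hochberg adjusted p-values of 2.1e-19 for SOX8, 1.1e-23 for SOX9 and 1.4e-06 for SOX10, which passed the filter on low counts through day 0 alone and so had to vary. By this test 91.5% of all 19436 genes tested varied. The range between the lowest and highest day mean was 1.56 on the log2 scale for SOX8 and 1.67 for SOX9. These ranges lay at the 60.1 and 63.3 percentiles of all genes tested, so both genes moved somewhat farther than the median gene. RNA was taken from whole dishes, so a fall in a gene cannot be told apart from fewer cells that express it.

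**Figure D1:**
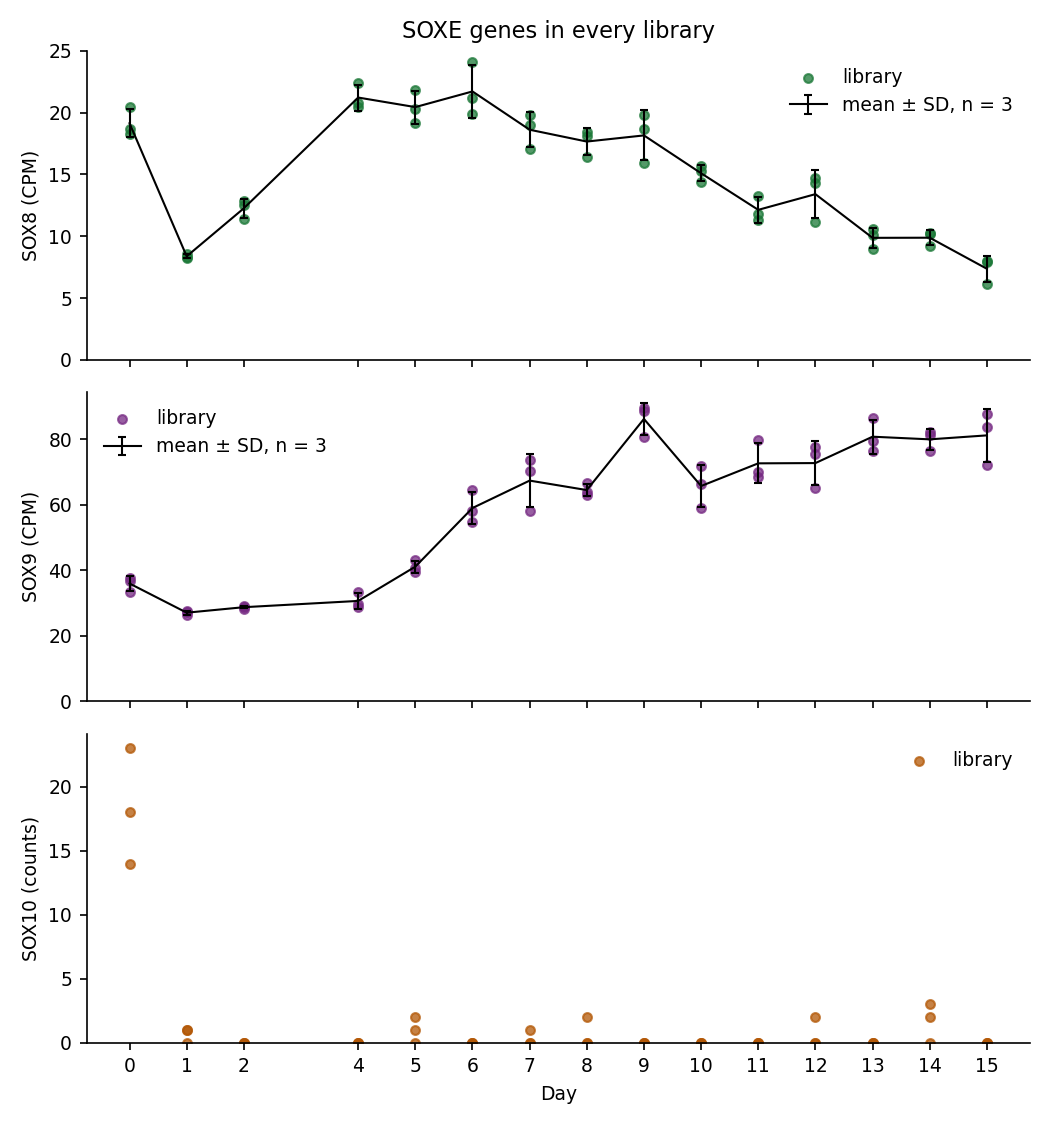
Levels of SOX8 and SOX9 in CPM (counts scaled to the library total) and SOX10 in counts, by day. Points are libraries, lines and bars the mean ± SD (n = 3); day 3 has no library here. SOX8 dips on day 1 and declines after day 6, SOX9 climbs between days 4 and 9, and SOX10 stands above 3 counts only on day 0.

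SOX10 fell to near 0 counts with the first day of RA and SAG. The day 0 libraries held 18, 14 and 23 SOX10 counts, or 0.545, 0.428 and 0.712 CPM (counts scaled to a common library total). Day 1 held 2 counts over its 3 libraries against 55 on day 0, a ratio of 23.4 with a 95% counting interval of 6.17 to 198. Thus each day 0 library lay above each day 1 library. The fitted log2 change in edgeR was -4.34 ± 0.871 (SE, adjusted p = 0.00015), while DESeq2 gave an adjusted p of 0.16. Of the 42 libraries after day 0, 33 held no SOX10 count, 9 held 15 counts in all, and none held more than 3. On 8 of these days all libraries were at 0. A count of 0 allows up to 3 counts, or 0.0733 to 0.136 CPM depending on the library, and this limit covers counting error only. No fold is given for SOX10 after day 1, since each of those libraries lies at or under that limit. SOX10 passed the filter on low counts through day 0 alone, so its fall on the next day follows in part from being tested at all.

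The other genes of the cell types in which SOX10 is known did not share one pattern on day 0. FOXD3, TFAP2B and CDH19, factors and an adhesion protein of neural crest and early Schwann cells, had 0 counts in the day 0 libraries, and TFAP2A had 4. The 14 listed neural crest genes summed to between 63.12 and 88.24 TPM on day 0 and between 43.53 and 49.01 TPM on day 1. Of 12 tested, 5 fell and 2 rose from day 0 to day 1, where 31.7% of all genes tested fell and 30.1% rose, with a median log2 change of -0.06 against 0 over all genes tested. SNAI1, a repressor in epithelial to mesenchymal transition, changed by -2.25 ± 0.16, and NGFR, the low-affinity neurotrophin receptor, by 2.44 ± 0.18. Of 7 Schwann cell and melanocyte genes tested, 2 fell, 2 rose and 3 were not called (median log2 change -0.52), against the same shares of all genes. ERBB3, a neuregulin receptor, had the largest fall (-2.92 ± 0.15, adjusted p = 2.1e-19 in edgeR). The 10 listed genes of this kind summed to between 276.6 and 291.5 TPM on day 0 and between 66.76 and 70.86 TPM on day 1. Of 13 oligodendrocyte-lineage genes tested, 6 rose and 2 fell (median log2 change 0.23), against those shares. The 16 listed summed to between 115.4 and 125.4 TPM on day 0 and between 158 and 161.5 TPM on day 1. POLR2F, the overlapping gene, changed by 0.16 on the log2 scale (adjusted p = 0.053 in edgeR). What part reads of POLR2F have in the SOX10 counts was not tested.

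SOX8 and SOX9 were also lower on day 1 than on day 0. The SOX8 level was 18.7, 20.45 and 18.3 CPM on day 0 and 8.23, 8.57 and 8.35 CPM on day 1. All day 1 libraries lay below all day 0 libraries. The log2 change was -1.19 ± 0.103 (edgeR quasi-likelihood test, adjusted p = 6.5e-13), a 2.28-fold lower level. SOX9 went from 37.8, 33.3 and 36.9 CPM to 27.5, 27.35 and 26.4 CPM, again without overlap. Its log2 change was -0.41 ± 0.0874 (edgeR, adjusted p = 1e-04), a 1.33-fold lower level. SOX8 and SOX9 thus fell on the same day as SOX10, in a comparison that called 61.7% of the genes tested, with 31.7% lower and 30.1% higher. The SOXB1 relatives SOX1 and SOX2 belong to a list of 8 SOXB and SOXC genes, of which 6 rose and 1 fell in the same comparison. SOX21 had the largest rise there (5.94 ± 0.14) and SOX12 the fall (-0.63 ± 0.063). In the SOXD group, partners of SOX9 in cartilage, SOX13 fell by 1.16 while SOX5 and SOX6 rose by 1.06 and 0.60 on the log2 scale.

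SOX8 then recovered within 3 days while SOX9 did not pass the test. The SOX8 level reached 12.6, 12.9 and 11.4 CPM on day 2 and 20.5, 20.8 and 22.4 CPM on day 4. Each day lay fully above the one before, and the day 4 libraries ended just above the highest day 0 library. From day 1 to day 4 SOX8 rose by 1.34 ± 0.103 on the log2 scale (edgeR, adjusted p = 5.7e-14), or 2.53-fold, where 47.2% of genes tested were called, 24.4% higher and 22.8% lower. The steps to day 2 and to day 4 were 0.55 and 0.79, with adjusted p-values in edgeR of 0.00011 and 3.2e-08, in steps that called 23.3% and 35.5% of genes. SOX9 lay at 29, 28.97 and 28.3 CPM on day 2 and at 29.6, 28.9 and 33.5 CPM on day 4. Its change from day 1 to day 4 was 0.18 ± 0.0887 (edgeR, adjusted p = 0.093), and the count of members called there was 1 of 3. With TPM in limma the SOX9 change was 0.23 (adjusted p = 0.03), and with both days fitted alone in edgeR it was 0.18 (adjusted p = 0.035).

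**Figure D2:**
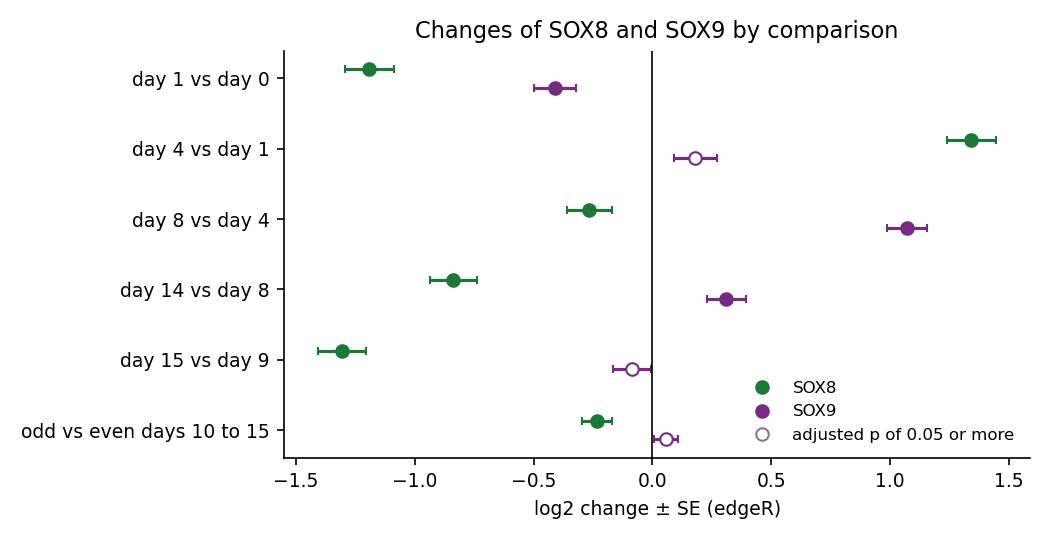
Log2 change ± SE of SOX8 and SOX9 in 6 comparisons, from 1 edgeR fit of all 45 libraries. Filled points have an adjusted p under 0.05; the largest rise is SOX8 from day 1 to day 4 (1.34) and the largest fall SOX8 from day 9 to day 15 (-1.30).

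Between days 4 and 9 the picture turned, with SOX9 rising in several steps. SOX9 reached 39.6, 40.6 and 43.2 CPM on day 5 and 64.45, 58.0 and 54.7 CPM on day 6. The 2 steps were 0.42 (adjusted p = 0.0015) and 0.52 (adjusted p = 4.5e-05) on the log2 scale in edgeR, where 6.72% and 8.43% of all genes were called. Both calls were lost without replicate 1 (adjusted p = 0.09 and 0.086 in edgeR). Over 9 alternatives the 2 log2 changes lay between 0.401 and 0.479 and between 0.424 and 0.61. Neither day overlapped the one before it. Days 7 and 8 differed little from day 6, with adjusted p-values in edgeR of 0.18 for day 7 against day 6 and 0.72 for day 8 against day 7. On day 8 SOX9 stood at 64.0, 63.0 and 66.65 CPM, 2.10-fold above day 4 (log2 change 1.07 ± 0.0855, edgeR, adjusted p = 1.7e-13), where 53.2% of genes tested were called, 27.1% higher and 26% lower. On day 9 it reached its highest mean, 86.3 ± 4.93 CPM (SD, n = 3), with libraries at 88.7, 80.6 and 89.5 CPM. That step was 0.42 on the log2 scale (edgeR, adjusted p = 0.00026), among 21.5% of genes called. Its call was lost without replicate 1 (edgeR, adjusted p = 0.054), and its log2 change lay between 0.393 and 0.447 over 9 alternatives.

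SOX8 held a plateau over the same days. Its highest mean was on day 6, at 21.7 ± 2.17 CPM (SD, n = 3), and the libraries of days 4, 5 and 6 overlapped. On day 8 it stood at 18.1, 18.4 and 16.45 CPM, below each library of day 4. The log2 change from day 4 to day 8 was -0.26 ± 0.096 (edgeR, adjusted p = 0.019), against 26% of genes tested that fell. This call was lost without replicate 1 (adjusted p = 0.061), without replicate 3 (0.15), without the third library of day 4 (0.097) or of day 8 (0.1), and with TPM in limma (0.19).

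From day 9 to day 10 both genes fell. SOX9 came down to 66.3, 72.0 and 59.0 CPM, below all day 9 libraries (log2 change -0.39, edgeR, adjusted p = 0.00029). SOX8 came down to 15.25, 15.65 and 14.4 CPM from 15.9, 19.85 and 18.7 CPM, also without overlap (log2 change -0.27, edgeR, adjusted p = 0.033). The SOX8 call was lost when any 1 of the 3 replicate numbers was left out, with adjusted p-values in edgeR of 0.059, 0.18 and 0.13. The SOX8 log2 change lay between -0.371 and -0.213 over 9 alternatives. In this step 29.6% of all genes were called. The 10 pan-neuronal genes, such as TUBB3 and STMN2, summed to between 4458 and 4824 TPM on day 9 and to between 2682 and 3857 TPM on day 10, and their part in the fall of SOX9 was not tested.

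Late in the course SOX8 declined and SOX9 stayed high. The medium was changed on alternate days, so late days were compared within even and within odd days. From day 8 to day 14 SOX8 fell to 10.3, 10.2 and 9.20 CPM, a log2 change of -0.84 ± 0.0984 (edgeR, adjusted p = 4.6e-09), with no overlap. From day 9 to day 15 it fell to its lowest values, 8.04, 7.93 and 6.16 CPM, a log2 change of -1.30 ± 0.101 (edgeR, adjusted p = 1.1e-13) or 2.47-fold. The even-day comparison called 43.3% of the genes tested, 21.6% higher and 21.6% lower, and the odd-day one 47%, with 22% higher and 25% lower. Among single steps, SOX8 fell from day 12 to day 13 (-0.44, adjusted p = 0.0088) and from day 14 to day 15 (-0.43, adjusted p = 0.012), steps in which edgeR called 3.52% and 4.05% of genes. The first of these calls was lost without replicate 1 or replicate 2, and the other without any 1 replicate number. Over 9 alternatives the 2 log2 changes lay between -0.491 and -0.374 and between -0.465 and -0.346.

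The SOX9 result depended on which days were set against each other. From day 8 to day 14 SOX9 went to 82.2, 81.5 and 76.5 CPM, all above day 8 (log2 change 0.31 ± 0.0813, edgeR, adjusted p = 0.0018), among 21.6% of genes that rose. This call was lost without replicate 1 (adjusted p = 0.08). From day 9 to day 15 it went to 83.9, 87.8 and 72.1 CPM, which overlapped day 9 (log2 change -0.09 ± 0.0808, edgeR, adjusted p = 0.4). Day 15 against day 8 gave 0.33 (adjusted p = 0.00074), and day 14 against day 9 gave -0.11 (adjusted p = 0.3), so the sign followed the earlier day chosen. The test of the odd-day minus the even-day change gave -0.40 ± 0.115 for SOX9 (adjusted p = 0.052) and -0.47 ± 0.141 for SOX8 (adjusted p = 0.066) in edgeR, and 0.032 and 0.039 in DESeq2. Across days 10 to 15, with a linear trend taken out, SOX8 was lower on odd than on even days (-0.23 ± 0.0614, edgeR, adjusted p = 0.018), where 5.4% of genes tested were called, 1.73% higher and 3.66% lower. That call was lost without replicate 1 (0.22) or replicate 2 (0.26). SOX9 gave 0.06 ± 0.0497 (adjusted p = 0.6).

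Ordered by mean level, SOX8 was highest on day 6, then days 4, 5, 0, 7, 9, 8, 10, 12, 2, 11, 14, 13 and 1, and lowest on day 15. The libraries of 10 of the 14 neighbouring pairs in this order overlapped, and gaps lay between days 8 and 10, 11 and 14, 13 and 1, and 1 and 15. SOX9 was highest on day 9, then days 15, 13, 14, 12, 11, 7, 10, 8, 6, 5, 0, 4 and 2, and lowest on day 1. Here 11 of 14 neighbouring pairs overlapped, with gaps between days 6 and 5, 5 and 0, and 2 and 1. The order therefore splits SOX9 into high days from day 6 on and low days up to day 5.

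Scaled for length, SOX9 was above SOX8 in 45 of 45 libraries, but by very different margins. SOX9 averaged 14.6 TPM on day 0, 12.9 on day 4 and 39.5 on day 15. SOX8 averaged 9.86, 11.2 and 4.39 TPM on the same days. For every 100 SOX9 TPM there were 67.7 ± 8.59 SOX8 TPM (SD, n = 3) on day 0 and 38.9 ± 1.35 on day 1. The share was largest on day 4, at 86.9 ± 2.26, and smallest on day 15, at 11.1 ± 0.401. The libraries of day 4 lay above those of every other day and those of day 15 below them. The ratio is given as a description and was not tested. SOX10 on day 0 averaged 0.337 TPM, far below both. Across the 15 day means SOX8 and SOX9 had a Pearson r of -0.172 and a Spearman rho of -0.346 on log2 CPM.

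**Figure D3:**
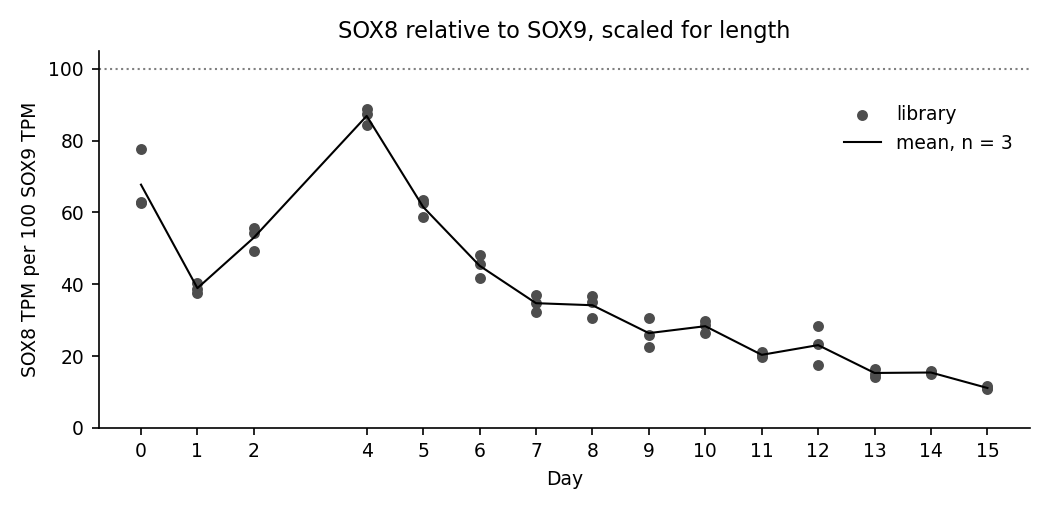
SOX8 TPM for every 100 SOX9 TPM by day; points are libraries, the line joins day means (n = 3), and the dotted line marks equal levels. The ratio runs from 88.8 on day 4 down to 10.71 on day 15 and never reaches 100.

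The genes whose day means most resembled those of SOX8 were MTAP, ADD2, ZCCHC2, EPHA4 and SLC19A2, with Pearson r from 0.948 to 0.922 over 15 days. For SOX9, 4 of the 5 were GDPD1, SLC35F4, GABARAPL2 and LMBRD2, with r from 0.988 to 0.981. Both lists were taken from 14154 protein-coding genes with a day mean of at least 1 CPM. Other settings kept 2 to 3 of the 5 genes for SOX8 and 0 to 1 of the 5 for SOX9. The lincRNA AC009041.2 starts 212 bases from SOX8 on the other strand, and strand was not stated for the counts. It went the same way as SOX8 on day 1 (-1.01 ± 0.14), on day 4 (1.66) and from day 9 to day 15 (-0.55), with edgeR adjusted p-values of 5.8e-08, 4.2e-13 and 0.00019. It changed by 0.24 from day 4 to day 8, when SOX8 fell, and by -0.26 from day 8 to day 14 (adjusted p = 0.096 and 0.068 in edgeR). LMF1, a lipase maturation factor gene that lies 490 bases away on that strand, went with SOX8 on day 1 (-0.97) and day 4 (0.45) but rose from day 4 to day 8 (0.37, adjusted p = 0.0012 in edgeR). From day 9 to day 15 LMF1 changed by 0.18 (adjusted p = 0.12 in edgeR). SOX9-AS1, with 1129 counts over all libraries, fell on day 1 (-2.31 ± 0.37, adjusted p = 1.1e-06) and rose from day 4 to day 8 (1.67, adjusted p = 0.00033), the 2 comparisons with the largest SOX9 changes.

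In gliogenesis SOX9 is known to act upstream of and together with NFIA. In these libraries SOX9 stood at a higher TPM than NFIA, and both rose between days 4 and 9. NFIA held 4, 2 and 5 counts on day 4 and 84, 103 and 62 counts on day 8. NFIA averaged 0.11 TPM on day 4, 2.06 on day 9, 7.20 on day 10 and 25.4 on day 15, while SOX9 averaged 12.9, 39.8, 30.2 and 39.5 TPM on those days. Of 17 gliogenic and astrocyte genes tested, 4 rose and 3 fell from day 4 to day 8, the comparison with the SOX9 rise (median log2 change -0.04, against -0.0022 over all genes tested, of which 27.1% rose and 26% fell, shares above those of the list). From day 8 to day 14, 10 rose and 3 fell (median 1.07), and from day 9 to day 15, in which SOX9 did not pass the test, 14 rose and 1 fell (median 2.03). Over all genes tested, 21.6% rose and 21.6% fell in the first of these late comparisons and 22% rose and 25% fell in the other. NFIX and S100B, a nuclear factor and a calcium-binding protein of glia, led the rise from day 8 to day 14, by 5.30 ± 0.33 and 5.24 ± 0.45 on the log2 scale. On day 8 NFIX held 3, 9 and 4 counts and S100B 0, 6 and 2, so both changes start from levels near 0. S100B held at most 6 counts in any library before day 10, so its rise follows in part from being tested at all. PTPRZ1, a receptor phosphatase of radial glia, fell by 0.82 from day 9 to day 15. GFAP, the astrocyte filament, averaged at most 0.827 TPM on any day.

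**Figure D4:**
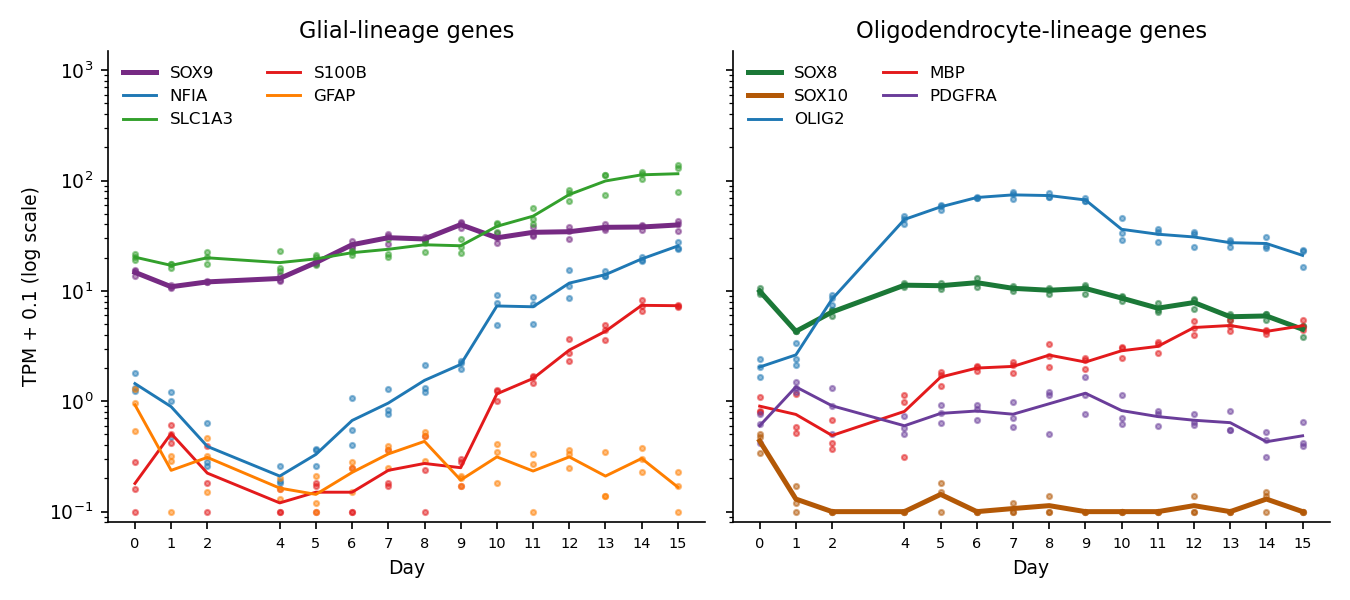
TPM (plus 0.1, log axis) by day for SOX9 beside glial genes (left) and for SOX8 and SOX10 beside oligodendrocyte-lineage genes (right); points are libraries and lines day means (n = 3). SOX9 was already at 39.8 TPM on day 9 when NFIA was at 2.06, and SOX8 and OLIG2 both decline after day 9.

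In the oligodendrocyte lineage, OLIG2 specifies progenitors while SOX8 and SOX10 act on myelin genes such as MBP. Of 13 such genes tested, 10 rose and 1 fell from day 4 to day 8 (median log2 change 1.14), against 27.1% and 26% of all genes tested, while SOX8 changed by -0.26. From day 8 to day 14, 3 rose and 5 fell (median -0.06), against 21.6% and 21.6% of all genes. From day 9 to day 15, 4 rose and 5 fell (median 0.14), against 22% and 25%, and SOX8 fell in both comparisons. OLIG2 fell from day 9 to day 15 along with SOX8, by 1.75 on the log2 scale, and MBP and NKX2-2 rose by 1.16 and 0.89. PDGFRA, the receptor of oligodendrocyte precursors, averaged at most 1.25 TPM on any day, and SOX10 held at most 3 counts in any library after day 0. OLIG2 is also a marker of motor neuron progenitors, so this list is not specific to oligodendrocytes.

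SOX9 is known to activate cartilage matrix genes, among them COL2A1. The cartilage list summed to between 139.2 and 157.9 TPM on day 8 and between 213.2 and 289.7 TPM on day 10, when SOX9 fell. The summed level went from between 105.1 and 113.1 TPM on day 9 to between 277 and 281.6 TPM on day 15. Of 10 genes tested, 6 rose and 0 fell in that comparison (median 0.59), where 22% of all genes tested rose and 25% fell, and 3 rose without replicate 1 or without replicate 3. With day 8 or day 11 in place of day 9, 2 rose. There were large rises for COL2A1 (1.54 ± 0.14) and COL9A3 (0.91 ± 0.26), while SOX9 gave -0.09. From day 4 to day 8, when SOX9 rose 2.10-fold, 5 rose and 2 fell (median 0.75), against 27.1% and 26% of all genes, with ACAN at -1.17 ± 0.11. MATN1, a cartilage matrix marker, averaged at most 0.283 TPM on any day. Of 4 Sertoli genes tested 1 fell and 0 rose from day 9 to day 15, where 25% of all genes tested fell and 22% rose. The 1 that fell was FGF9 (-0.65 ± 0.14). Of 8 cofactors and modifiers of SOXE proteins, such as the coactivator EP300 and the importin KPNB1, 6 fell and 0 rose from day 4 to day 8 (median -0.32), against 26% and 27.1% of all genes. From day 8 to day 14, 5 fell and 0 rose (median -0.24) in edgeR, 3 fell with TPM in limma, and 1 rose without day 8 replicate 2 or day 14 replicate 3. From day 9 to day 15, 5 fell and 0 rose (median -0.16), but 3 fell without replicate 1 or replicate 3 and 2 fell with TPM in limma. With day 8 in place of day 9, 4 fell and 2 rose.

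Among the 3 libraries of a day, SOX9 was higher where neuronal genes were higher. The pan-neuronal sum in the 3 libraries of day 10 was 3328, 3857 and 2682 TPM, and SOX9 was 30.1, 33.25 and 27.2 TPM. On day 11 the sums were 3144, 3519 and 4767 TPM, and SOX9 was 31.55, 32.2 and 37.8 TPM. The same library was highest in both measures on 11 of 15 days and lowest in both on 10. Over 45 libraries, as log2 deviations from the mean of each day, Pearson r was 0.83 and Spearman rho 0.85. Each had a p of 1e-05 in a permutation test within days, the smallest 100000 permutations can give, and adjusted p-values were 0.00024 and 0.00048 over 48 relations. Without the 2 libraries farthest from the median of the neuronal sum r was 0.81, and it was 0.92 in days 10 to 15 and 0.78 in days 0 to 9. Of 12866 genes with a day mean of at least 5 TPM and no zero, 88, SOX9 itself included, had an r as high as SOX9. The median r was 0.02, and the genes that make up the neuronal sum were not left out of this count. This relation was examined after the values had been seen.

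**Figure D5:**
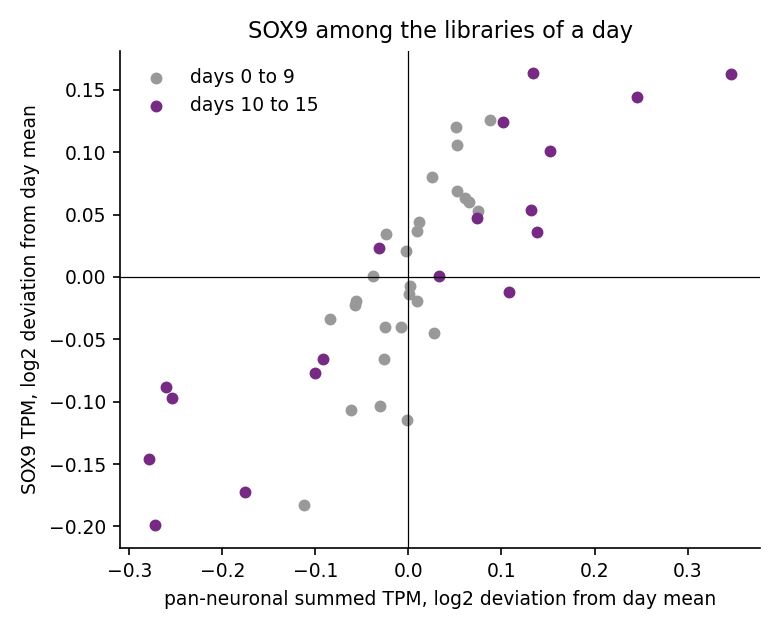
Log2 deviation of SOX9 TPM from the mean of its day against that of the pan-neuronal summed TPM, 1 point per library (45 libraries). Libraries above their day mean in neuronal genes tend to lie above it in SOX9, with r = 0.83 over all days.

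Other lists gave SOX9 relations of the same kind. Within days SOX9 went with the oligodendrocyte list (r = 0.74, rho = 0.76, permutation adjusted p = 0.00032 and 0.00048) and against the cartilage list (r = -0.79, rho = -0.76, permutation adjusted p = 0.00024 and 0.00048). It also went against the cycling genes (r = -0.59, rho = -0.57, permutation adjusted p = 0.0077 and 0.0055) and the neural progenitor genes (r = -0.57, rho = -0.52, permutation adjusted p = 0.011 and 0.012). With the motor neuron genes SOX9 gave r = 0.60 and rho = 0.58 (permutation adjusted p = 0.0081 and 0.0055) over all days, 0.90 in days 10 to 15 and 0.17 in days 0 to 9 (permutation adjusted p = 0.53), and 0.52 over all days without the 2 farthest libraries. Without the 2 farthest libraries the first 4 values of r were 0.72, -0.79, -0.49 and -0.47. In days 0 to 9 alone, the progenitor and cycling relations did not pass (adjusted permutation p = 0.53 and 0.27). The relation with the gliogenic list was -0.42 (rho = -0.32, permutation adjusted p = 0.095 and 0.19) and that with the total count -0.25 (rho = -0.31, adjusted p = 0.25 and 0.15). SOX8 gave 0.31 with the neuronal sum (rho = 0.36, permutation adjusted p = 0.25 and 0.13) and -0.52 with the cycling genes (rho = -0.53, permutation adjusted p = 0.011 and 0.0062). With the motor neuron genes SOX8 gave 0.42 (rho = 0.46, permutation adjusted p = 0.065 and 0.035), and 0.51 without the 2 farthest libraries. The SOX8 relation with cycling genes did not pass in days 10 to 15 (r = -0.46, permutation adjusted p = 0.23). It was -0.43 over all days without the 2 farthest libraries, and its permutation p was 0.19 without replicate 1 and 0.19 without replicate 3. Whether cell composition accounts for any of these relations was not tested.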

How the data were processed

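Polyadenylated RNA was measured in 45 libraries (15 days, 3 each). The submitters' processing notes name bcl2fastq 2.20.0, RSEM with no version and the GRCh38 build. The sources used here do not state the aligner, the annotation release or the strand setting. The deposited expected counts are RSEM estimates per gene, 92.5% of them whole numbers, and were rounded here. TPM, deposited by the authors beside the counts and scaled for length and library total, served here for levels between genes, summed lists and limma. Of 58233 identifiers, 57895 are in GENCODE 29, and the other 338 hold 0.0276% of the counts.

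The edgeR package (version 4.0.16, R 4.3.3) was run on the rounded counts, with TMM factors (0.9247 to 1.061), the default filter on low counts by day (19436 genes kept), day as a factor and 30 residual degrees of freedom. Adjustment followed Benjamini and Hochberg across the genes kept, with calls at an adjusted p under 0.05. CPM uses TMM-scaled library totals. An exact permutation test of 3 against 3 cannot go below 0.1, so tests rest on the spread shared over days and genes.

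Members and gene lists were chosen with earlier results of these data known. Beside the members, up to 4 called genes of a list (the 2 highest and 2 lowest changes) were named for a comparison, with overlapping genes, cell type markers and the 5 genes most like each member. A few genes this would name are not reported here. NFIA after day 8, TFAP2B, AC009041.2 and LMF1 were named after their values were seen. Relations within days were computed on log2 TPM deviations from day means, with 100000 reshuffles of libraries within days. The steps were tested on simulated data.

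Alternatives were DESeq2 1.42.0, its size factors in edgeR, no filter (37223 genes), a 2-fold threshold, limma 3.58.1 on log2(TPM + 1) and log2(TPM + 0.1) where 3 libraries had 1 TPM or more (18075 genes), days fitted alone, a term for the replicate number, and left-out libraries or replicate numbers. Other pairs of late days, the test of the odd-day minus even-day change and the within-day relations were chosen after seeing the data.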

Additional observations from a re-analysis of the deposited data

How the results depend on the processing

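Requiring a change of at least 2-fold (glmTreat in edgeR) left the log2 changes as they are but ended the calls for SOX8 and SOX9 on day 1 (-1.19 and -0.41), for both from day 4 to day 8 (-0.26 and 1.07), for both from day 8 to day 14 (-0.84 and 0.31) and for SOX8 on odd against even days (-0.23). The counts of all genes higher and lower became 1267 and 1226 on day 1 against day 0 (5845 and 6152 otherwise), 853 and 653 on day 4 against day 1 (4738 and 4432), 967 and 212 on day 8 against day 4 (5269 and 5063), 649 and 246 on day 14 against day 8 (4205 and 4202) and 720 and 241 on day 15 against day 9 (4280 and 4853). For odd against even days glmTreat called 0 and 0 where the edgeR test without the fold threshold called 337 and 712, limma on log2(TPM + 1) 212 and 390, limma on log2(TPM + 0.1) 158 and 319, and a plain mean difference, trend included, 1105 and 1899; with no filter 200 were higher.

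In limma, with 1 and with 0.1 added to TPM, SOX9 from day 1 to day 4 was 0.23 and 0.25 and passed, SOX8 from day 4 to day 8 was -0.14 and -0.15 and did not, and lower genes numbered 2792 and 2800 from day 1 to day 4, 3015 and 2955 from day 4 to day 8, and 3105 and 3096 from day 9 to day 15. Fitting days 1 and 4 alone gave SOX9 0.18, which passed. In DESeq2 SOX10 on day 1 was -4.48 and did not pass, and the odd-day minus even-day changes of SOX8 (-0.47) and SOX9 (-0.40) did. SOX9 changed sign to -0.11 for day 14 against day 9, to 0.33 for day 15 against day 8 and to 0.16 for day 15 against day 11, where 2510 genes were higher and 2905 lower. The cause was not tested in any of these.

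Leaving out 1 library or replicate number gave SOX8 from day 4 to day 8 between -0.308 and -0.174, SOX9 from day 8 to day 14 between 0.273 and 0.366, SOX9 from day 9 to day 15 between -0.201 and 0.0207, SOX8 on odd against even days between -0.289 and -0.181 and the odd-day minus even-day changes between -0.609 and -0.329 (SOX8) and between -0.474 and -0.31 (SOX9). The last 2 passed without day 9 replicate 1 (SOX8) and without day 9 replicate 2 or day 15 replicate 2 (SOX9). Genes on odd against even days ranged from 65 to 164 higher and from 122 to 321 lower. The within-day r of SOX8 with the cycling sum ranged from -0.662 to -0.42, that of SOX9 with the neuronal sum from 0.8 to 0.849.

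Same-numbered libraries did not deviate together: 13 of 315 pairs had r over 0.1, with a median of 0.0016. With the replicate number as a block, SOX9 for the odd-day minus even-day change was -0.40 (adjusted p = 0.05 in edgeR, just under the threshold), and no other change of a SOXE gene refitted with it crossed the threshold.

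SOX10 is limited by depth after day 0, and SOX8, at 6.16 CPM or more in every library, and SOX9 are not. Days stand for time, culture and medium change together, so none can be separated.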
